A study of Mus musculus with 3 samples.

Results

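The integrin and laminin chains of regenerating mouse muscle were followed across cell types in 3 single-cell RNA libraries. The members were all genes whose symbol is that of an integrin alpha chain, an integrin beta chain or a laminin chain. Of 32285 features, 37 had such a symbol: 18 integrin alpha, 8 integrin beta, 5 laminin alpha, 3 laminin beta and 3 laminin gamma chains. All 37 had at least 50 UMIs (unique molecular identifiers, 1 per captured transcript) over the kept cells of the 3 libraries. Totals ran from 53 UMIs for Lamc3, 54 for Itgad and 57 for Lama1 to 213682 for Itgb1.

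The groups are called young PBS, old PBS and old rMETRNL. All came from tibialis anterior muscle of C57/BL6J mice, dissociated 4 days after injury with barium chloride, and the last was given recombinant meteorin-like protein where the others were given vehicle. The labels give age only as young and old. Each group had 1 library, so no test between groups was possible. According to the study's methods, animals were pooled for each. Old PBS was compared with young PBS (the age contrast) and old rMETRNL with old PBS (the treatment contrast). Both contrasts share the old PBS library. A level that is high in that library alone is therefore high in one contrast and low in the other by construction.

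The files held 12168 to 14012 cell barcodes and 179295668 to 228966697 UMIs per library, and 31780 cells (82.0%) were kept. Pairs of libraries shared 58 to 80 barcodes, at most 0.657% of the smaller library. Cells were clustered without any member gene and named "-like" from marker genes that hold no member. In all, 7 classes had at least 100 cells in every library. Macrophage/monocyte-like cells were the most numerous, with 6067, 5470 and 6532 cells in the young PBS, old PBS and old rMETRNL libraries. Fibro/adipogenic progenitor-like (FAP-like) cells numbered 1640, 1359 and 1693 in the same order. The other classes were endothelial-like, dendritic-like, tenocyte-like and T/NK-like cells, and MuSC/myoblast-like cells, the satellite cells of muscle and their progeny. The leading genes of the last class held Myod1 and Myf5 but also Myog and Ttn, genes of differentiating muscle cells, and its 10 myocyte markers summed to 5452, 3992 and 3083 CPM, above the 1409, 1350 and 1256 CPM of its 9 MuSC/myoblast markers. The old PBS library had fewer MuSC/myoblast-like cells (215, against 466 and 437) and more myocyte-like cells (434, against 34 and 129). Levels are given as CPM, the UMIs of a gene scaled to a total of 1000000 UMIs for its class in that library, always in the order young PBS, old PBS, old rMETRNL. They are not scaled to transcript length, so each gene is compared across classes and libraries and not with other genes. A ratio of 2 libraries is followed by its exact 95% interval, which covers counting error only and not the spread between mice.

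Integrins are receptors made of 1 alpha and 1 beta chain that span the cell membrane and tie the cytoskeleton to matrix proteins or to other cells. Laminins are trimers of an alpha, a beta and a gamma chain that are secreted and form the sheet of the basement membrane. In muscle, the laminin trimer with the Lama2 chain surrounds the fibre and is bound by the integrin of the Itga7 and Itgb1 chains, and loss of either Lama2 or Itga7 causes muscle disease. Leukocytes use integrins of the Itgb2 chain to leave the blood, and endothelial cells rest on a basement membrane with the Lama4 and Lama5 chains.

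The results turn on a few genes, and the regions before an annotated start of each are shown here. Lama2, Lamb1 and Lamb2 are laminin chains with more transcripts in old PBS FAP-like cells, and Itgam and Itgax, both on chromosome 7, are partners of Itgb2 with different ratios in macrophages. Each sequence runs 5′ to 3′ on the strand of the gene and ends at the RefSeq start or, for Lamb1, Lamb2 and Itgax, at the first GENCODE exon before it. They were taken from RefSeq, build GRCm38.p6. The Lama2 window lies inside the GENCODE span of the gene, whose start at 27619758 is further upstream. Capitals mark matches, on either strand, to GAGGAA (the core bound by ETS factors such as PU.1), GGGCGG (the GC box bound by Sp factors) or TGACTCA (the AP-1 site). None of these motifs overlaps another.
Lama2, chr10:27616943-27617192, minus strand: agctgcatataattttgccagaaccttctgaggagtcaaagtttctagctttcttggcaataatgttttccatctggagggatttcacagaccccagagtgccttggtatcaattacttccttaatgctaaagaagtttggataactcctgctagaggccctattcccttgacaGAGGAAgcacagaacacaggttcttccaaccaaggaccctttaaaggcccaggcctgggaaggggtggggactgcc
Lamb1, chr12:31265043-31265233, plus strand: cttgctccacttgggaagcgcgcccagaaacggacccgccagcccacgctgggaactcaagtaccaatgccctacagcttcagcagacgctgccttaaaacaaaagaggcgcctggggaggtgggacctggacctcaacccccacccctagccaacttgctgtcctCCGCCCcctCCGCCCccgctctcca
Lamb2, chr9:108479612-108479735, plus strand: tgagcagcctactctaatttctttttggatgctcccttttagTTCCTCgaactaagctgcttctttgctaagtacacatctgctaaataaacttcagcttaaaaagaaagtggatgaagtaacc
Itgam, chr7:128062390-128062639, plus strand: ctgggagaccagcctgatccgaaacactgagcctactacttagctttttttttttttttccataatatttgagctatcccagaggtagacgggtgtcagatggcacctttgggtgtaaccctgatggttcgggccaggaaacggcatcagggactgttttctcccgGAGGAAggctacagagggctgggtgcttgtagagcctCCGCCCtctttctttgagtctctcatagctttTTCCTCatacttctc
Itgax, chr7:128129300-128129546, plus strand: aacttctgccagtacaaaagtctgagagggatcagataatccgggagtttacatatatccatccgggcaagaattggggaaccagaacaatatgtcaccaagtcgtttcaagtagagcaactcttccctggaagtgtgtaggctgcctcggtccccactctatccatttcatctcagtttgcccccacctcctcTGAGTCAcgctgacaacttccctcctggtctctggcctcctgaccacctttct

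Itgam held 2 matches to GAGGAA and 1 GC box, and Itgax held neither but had the single match to TGACTCA. Lamb1 held 2 neighbouring GC boxes, while Lama2 and Lamb2 had none in these windows. The table used here had 26 windows for 23 of the 37 genes, with no entry for Lamc1 or Lama4. Over windows of 250 bases, GAGGAA occurred in 13 of 26 member windows and in 23.3% of 32851 windows of all genes. GGGCGG occurred in 9 of 26 and in 32.7% of all windows, and TGACTCA in 1 of 26 and in 4.46% of all. A match of these letters is a description of the sequence and not a binding site.

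Most chains had a highest class that held in every library. Ranks and second classes here are among the 7 classes with at least 100 cells in every library, and 3 smaller classes are described last. For 28 of the 37 the same class was highest in all 3 libraries, and for 15 the mean level there was at least 2-fold above the second class. For 8 it was at least 5-fold above. By mean level, 9 chains were highest in FAP-like cells, 8 in endothelial-like, 6 in tenocyte-like, 4 each in dendritic-like and T/NK-like, and 3 each in macrophage/monocyte-like and MuSC/myoblast-like cells. The chains whose highest class changed with the library included Itga2b, Itgad, Itgb1, Itgb3, Itgb5, Itgb8, Lama1 and Lama3.

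**Figure D1:**
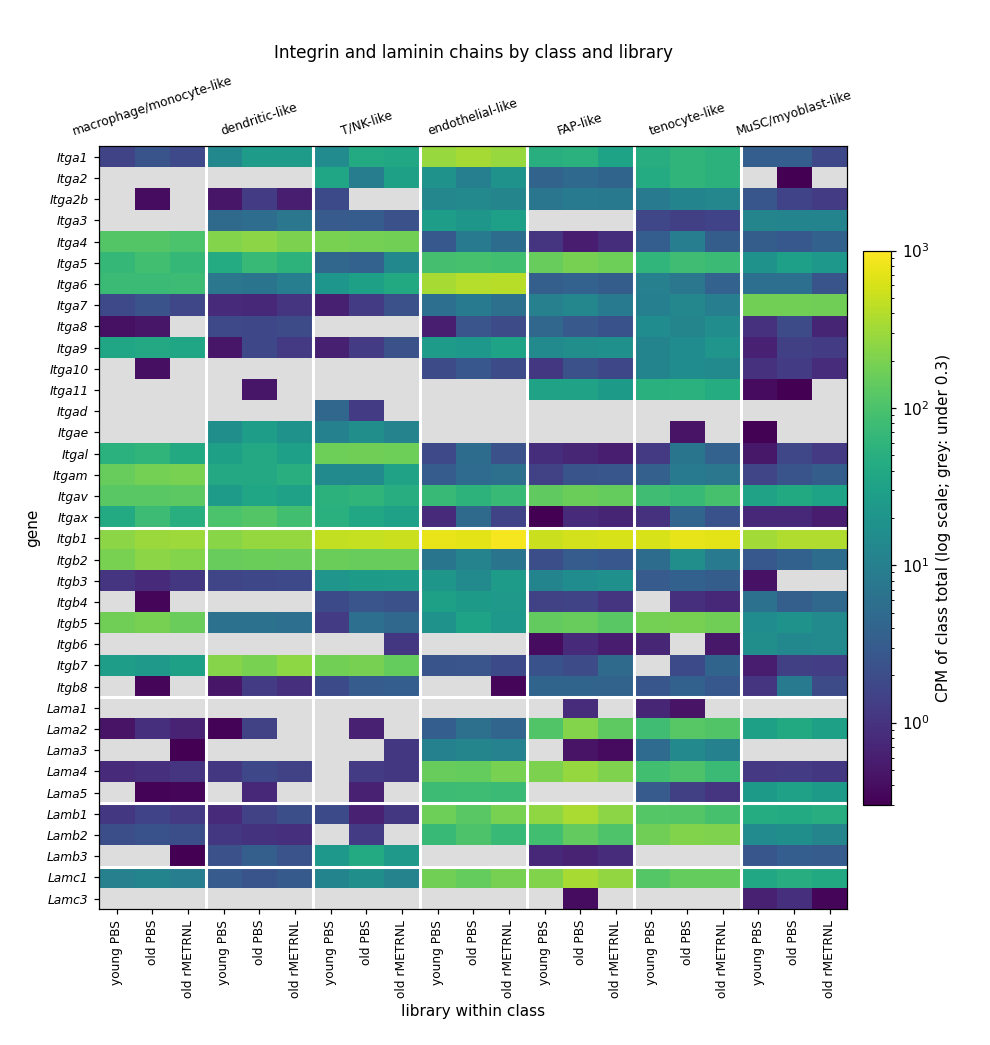
Heat map of 36 integrin and laminin chains (rows) in 7 classes, each with its 3 libraries side by side (columns); colour is CPM of the class total on a log scale and grey marks levels under 0.3 CPM. Blocks of 3 like-coloured columns show chains that were highest in the same class in every library, such as Itga7 at 171 to 178 CPM in MuSC/myoblast-like cells and Itga6 at 349 to 416 CPM in endothelial-like cells.

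Among the 7 classes, 2 integrin chains stood furthest apart in MuSC/myoblast-like cells. Itga7, the laminin receptor chain of muscle (chromosome 10, 128933818 to 128958282, plus strand, GRCm38), was at 178, 176 and 171 CPM in MuSC/myoblast-like cells, 16.1-fold above the second class, although the smaller pericyte/smooth muscle-like class had 136 to 180 CPM. The 3 libraries differed little, and both ratios had intervals that held 1 (0.992, 0.925 to 1.06, for age and 0.968, 0.902 to 1.04, for treatment). Itgb6, a partner of Itgav that activates latent TGF-beta, was at 16.7, 13.2 and 14.4 CPM there, 25.1-fold above the second class. Lamc3 was also highest in these cells, at 0.633, 0.924 and 0.349 CPM, which rested on 10, 6 and 5 UMIs.

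Collagen-binding chains were highest in tenocyte-like cells, the tendon fibroblasts. Itga10 was at 11.8, 15.3 and 14 CPM, 6.17-fold above the second class. Itga11, a receptor of fibrillar collagen in fibroblasts, was at 51.3, 53.3 and 45.5 CPM, and Itga2, another collagen receptor chain, at 43.8, 60.3 and 54.9 CPM. Itga8, which binds nephronectin, was at 15.4, 12.1 and 15.8 CPM. Itgb5, a partner of Itgav in binding vitronectin, was at 185, 189 and 172 CPM, and the laminin chain Lamb2 at 174, 216 and 209 CPM. The fourth collagen-binding alpha chain, Itga1, had another place: it was highest in endothelial-like cells at 285, 332 and 285 CPM, 5.51-fold above the second of the 7 classes, and higher still in the smaller pericyte/smooth muscle-like class.

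Endothelial-like cells had the laminin receptor chains Itga6, at 349, 410 and 416 CPM, and Itgb4, at 30.2, 25.2 and 23.9 CPM. These were 5.11-fold and 5.48-fold above the second of the 7 classes, but the smaller glial-like class had more Itgb4. Itga3, a further laminin receptor chain, was at 27.3, 22 and 28.9 CPM. Lama5, the laminin chain of mature vessel walls, was at 78.9, 80.5 and 76.0 CPM, 2.91-fold above the second class. Lama3 was at 10.6, 11.9 and 11 CPM, and Itga2b, the platelet fibrinogen receptor chain, at 12.7, 13.8 and 12.2 CPM. Itgb1, the common partner of most matrix-binding alpha chains, was at 755, 711 and 904 CPM.

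The leukocyte chains fell to 3 classes. Itgam (CD11b) was highest in macrophage/monocyte-like cells, at 151, 181 and 197 CPM, 4.06-fold above the second class, and Itgb2 stood at 196, 246 and 221 CPM there. Itga9, a receptor chain for tenascin and VCAM1, was highest there too, at 36.0, 40.7 and 35.9 CPM. Itgax (CD11c), the chain used to recognise dendritic cells, was highest in dendritic-like cells at 102, 114 and 84.8 CPM. A further 3 chains were highest there. Itga4, the VCAM1 receptor chain, was at 224, 244 and 200 CPM, its partner Itgb7 at 228, 196 and 250 CPM, and Itgae, which with Itgb7 binds E-cadherin, at 16.9, 27.8 and 19.3 CPM. Itgal, the LFA-1 chain that binds ICAMs, was at 168, 171 and 169 CPM in T/NK-like cells, 3.26-fold above the second class. Itgb3, the beta chain of the vitronectin receptor, was at 20.3, 24.8 and 26.8 CPM there. Itgad, an ICAM-binding partner of Itgb2, was at 4.31, 1.27 and 0 CPM on 7, 2 and 0 UMIs, where a count of 0 allows up to 3.35 CPM.

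A laminin chain was also highest in a leukocyte class. Lamb3, best known from the laminin of skin, was at 22.8, 43.3 and 23.5 CPM in T/NK-like cells, 9.68-fold above the second class, on 37, 68 and 21 UMIs. It was spread over cells: in old PBS, 52 of 186 T/NK-like cells held a Lamb3 UMI, with at most 3 in 1 cell.

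FAP-like cells, the fibroblast-like cells that make much of the matrix in injured muscle, were the main class of the laminins. Lama2, Lama4, Lamb1 and Lamc1, the chains of the trimers around fibres and small vessels, were each highest in FAP-like cells in all 3 libraries. Lama1, at 0.285, 0.844 and 0.248 CPM, was also highest there by mean level. So were 3 integrin chains: Itga5, the fibronectin receptor chain, at 150, 188 and 169 CPM, Itgav at 137, 160 and 149 CPM, and Itgb8, which with Itgav binds latent TGF-beta, at 4.15, 4.15 and 4.01 CPM. The smaller glial-like class had far more Itgb8, at 393 to 479 CPM.

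Ratios between libraries were read for the chains with at least 50 UMIs in a class, 161 pairs of a chain and a class in all. That minimum was taken over the 3 libraries together, so a pair can meet it through the library where it is high. A pair was counted as higher or lower where the ratio was at least 1.5 or at most 0.667 and its interval left out 1. In the age contrast 28 pairs (17.4%) were higher in old PBS and 6 (3.73%) were lower. Over all 78274 pairs of a gene and a class, 6.16% were higher and 5.11% lower. In the treatment contrast 7 pairs (4.35%) were higher and 16 (9.94%) lower in old rMETRNL, against 3.76% and 4.04% of all 78275 pairs. With each cell weighted equally, by averaging CPM over cells, the treatment contrast gave 19 higher and 20 lower pairs, where 5.77% and 5.87% of all pairs were. With every cell thinned to 2000 UMIs, the chains higher for age were 7 of 85 pairs (8.24%), where 5.62% of all pairs were.

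FAP-like cells had more chains past the limits for age than any other class, and 4 of their 8 higher chains were laminins. In the age contrast 8 of 31 chains were higher and 2 lower, where 6.39% and 5.67% of all genes were. The median log2 ratio of the chains was 0.30, against -0.04 over all genes. Summed over the 11 laminin genes, FAP-like cells had 881, 1347 and 971 CPM, a ratio of 1.53 (1.51 to 1.55) for age and 0.721 (0.711 to 0.731) for treatment. The 26 integrin genes summed to 1110, 1253 and 1202 CPM, giving ratios of 1.13 (1.11 to 1.14) and 0.960 (0.947 to 0.972). Some marker lists of other cells had the same order as the laminins and others did not. The 10 myocyte markers, all detected, summed to 24.7, 143 and 48.0 CPM in FAP-like cells and the 10 endothelial markers to 28.8, 45.5 and 35.8 CPM. The 9 pericyte/smooth muscle markers summed to 475, 298 and 348 CPM and the 9 MuSC/myoblast markers to 188, 104 and 87.4 CPM, both lower in old PBS than in young PBS. Their part in these ratios was not tested.

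Lama2 (chromosome 10, 26980036 to 27619758, minus strand) had the largest ratio among the abundant chains. It stood at 110, 219 and 133 CPM in FAP-like cells, from 4998, 6739 and 5915 UMIs. The ratio was 1.99 (1.92 to 2.07) for age and 0.610 (0.589 to 0.631) for treatment, so the old rMETRNL level lay between the others and nearer to young PBS. At least 1187 cells of each library held a Lama2 UMI, and no cell held more than 45.

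The other abundant laminin chains were also highest in old PBS. Lamc1, the gamma chain of most laminins (chromosome 1, 153218922 to 153332786, minus strand), was at 215, 347 and 266 CPM, giving ratios of 1.61 (1.57 to 1.66) for age and, for treatment, 0.766. Lamb2 was at 86.1, 141 and 108 CPM, giving an age ratio of 1.64 (1.57 to 1.71). Lamb1 was at 261, 358 and 245 CPM, and its ratios of 1.37 (1.34 to 1.41) and 0.685 (0.667 to 0.703) stayed inside the 1.5-fold limits. Lama4, the alpha chain of small vessel laminin, was at 203, 274 and 210 CPM and stayed inside them too, at 1.35 (1.31 to 1.39) and 0.765 (0.743 to 0.788). For all 5 chains old PBS was the highest library, and for Lamb1 old rMETRNL was below young PBS. Lama1, the embryonic alpha chain, had the largest age ratio at 2.96 (1.47 to 6.27), on only 13, 26 and 11 UMIs. With the Hmcn2 sub-cluster described below left out, Lama1 had too few UMIs to be counted.

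**Figure D2:**
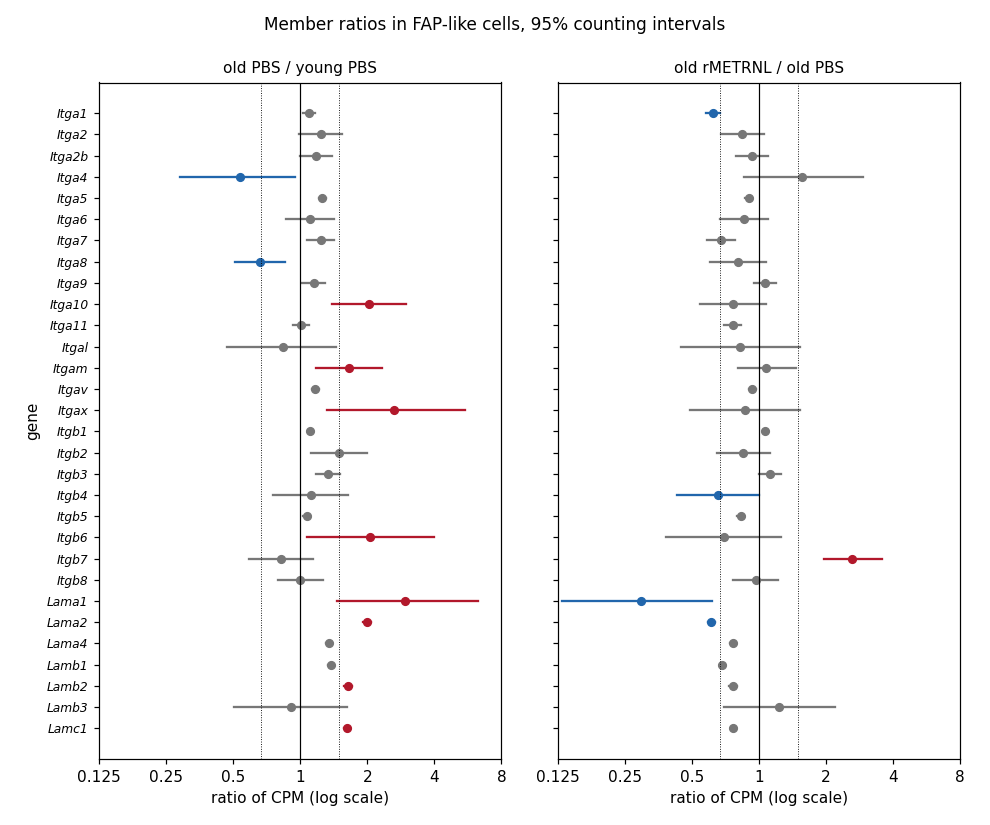
Ratios of CPM in FAP-like cells for 30 chains (rows), old PBS over young PBS at left and old rMETRNL over old PBS at right, on a log scale; points are ratios, lines are 95% counting intervals, dotted lines mark 1.5-fold in either direction, and red, blue and grey mark higher, lower and neither. Lama2, Lamb2 and Lamc1 lie to the right of the 1.5-fold line at left with short intervals, and Lama2 lies to the left of it at right.

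The integrin pairs of FAP-like cells rested on far fewer UMIs. Itga10 was at 1.12, 2.27 and 1.74 CPM (age ratio 2.03, 1.39 to 2.97) and Itgb6 at 0.395, 0.811 and 0.564 CPM (2.05, 1.08 to 4.00). Itgax was at 0.307, 0.811 and 0.699 CPM (2.64, 1.32 to 5.50) and Itgam at 1.49, 2.47 and 2.66 CPM (1.65, 1.18 to 2.33). These leukocyte chains stood at 42.5 to 78.9 and 151 to 197 CPM in macrophage/monocyte-like cells. The 12 macrophage markers were all detected in FAP-like cells, with summed levels of 196, 225 and 238 CPM, and free RNA was not tested as a source. Lower in old PBS were Itga4, at 1.03, 0.552 and 0.857 CPM (0.535, 0.288 to 0.949), and Itga8, at 4.37, 2.89 and 2.32 CPM (0.661, 0.509 to 0.853). With every cell thinned to 2000 UMIs the age ratios of Itga10 and Itga4 turned to 0.918 and 1.22. The main fibroblast receptor chains moved less: Itgb1 was at 528, 582 and 619 CPM, Itgav at 137, 160 and 149 CPM, and Itga5 had an age ratio of 1.26 (1.21 to 1.30).

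In the treatment contrast 1 of 31 chains was higher and 4 were lower in FAP-like cells, where 3.42% and 3.9% of all genes were. The lower chains were Lama1 (0.294, 0.131 to 0.615), Lama2, Itga1 and Itgb4. Itga1, a receptor chain for collagen IV and laminin, was at 49.3, 54.0 and 33.6 CPM, a ratio of 0.622 (0.579 to 0.667), and here old rMETRNL was the library apart while young and old PBS were close. The 7 tenocyte markers, all detected, summed to 574, 614 and 408 CPM in FAP-like cells, and their part was not tested. Itgb4 was at 1.43, 1.59 and 1.04 CPM (0.652, 0.426 to 0.996), but its ratio turned to 1.12 without the FAP-like sub-clusters led by a marker of another class. Itgb7 was the higher one, at 2.33, 1.92 and 5.01 CPM, a ratio of 2.61 (1.95 to 3.54), and up to 24 of its UMIs came from 1 cell. It was concentrated in a sub-cluster led by Pi16, a marker of progenitor-like fibroblasts, at 24.6, 11.9 and 32.5 CPM. The same sub-cluster had Itgb3 at 51.7, 51.0 and 57.6 CPM, where FAP-like cells as a whole had 11.6, 15.5 and 17.3 CPM.

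The FAP-like cells fell into 9 kept sub-clusters, and their laminin chains differed widely between them. A sub-cluster led by Hmcn2, Hsd11b1 and Crispld2, with the matrix genes Smoc2 and Col15a1 among its leading genes, had Lama2 at 590, 582 and 595 CPM, the highest of the 9 in every library. It also had the highest Lamc1, at 699, 678 and 627 CPM, and the highest Lamb1, at 666, 634 and 549 CPM. Lama2 and Lamc1 had intervals that held 1 in both contrasts there, while Lamb1 had a treatment ratio of 0.866 (0.782 to 0.958). The number of cells moved more: 20 cells of young PBS, 160 of old PBS and 58 of old rMETRNL. Lamb2 had another pattern. It was highest in a sub-cluster led by Clu and Myoc, at 567, 477 and 502 CPM. The 10 leading genes of this sub-cluster held the tenocyte marker Comp and no FAP marker, and tenocyte-like cells were the highest class for Lamb2. Among the kept sub-clusters, only that led by Pi16 had FAP markers among its leading genes. In the same sub-cluster Lamb1 was at only 34.3, 88.1 and 43.2 CPM. With this sub-cluster and one led by Inhba, which held the smooth muscle marker Acta2, left out, also a choice made after the values were seen, FAP-like cells had Lamb2 at 73.2, 132 and 101 CPM (1.80, 1.71 to 1.90, for age) and Lama2 at 115, 237 and 142 CPM.

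**Figure D3:**
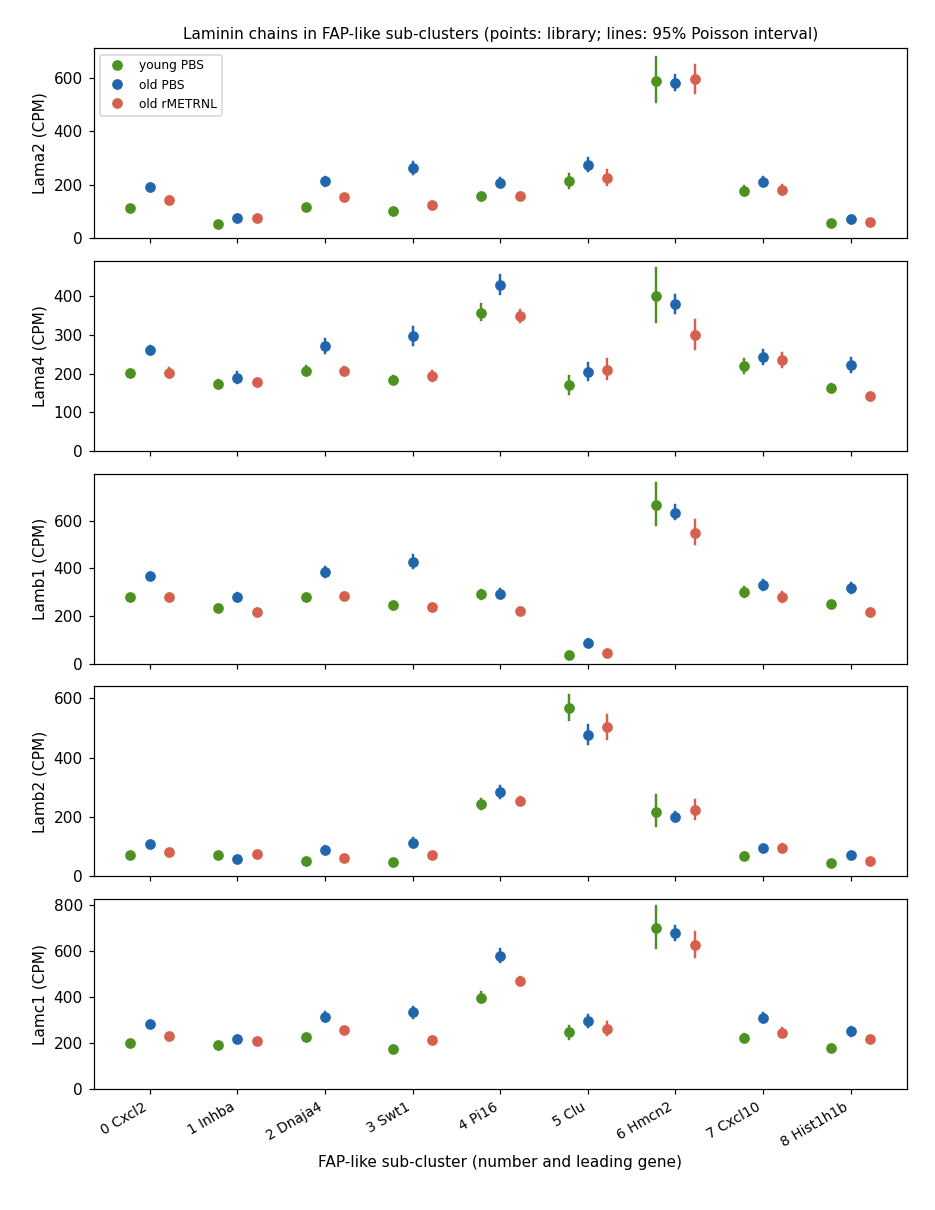
Levels of 5 laminin chains (panels) in the 9 FAP-like sub-clusters (x axis, number and leading gene); points are CPM in young PBS (green), old PBS (blue) and old rMETRNL (red) and lines are 95% Poisson intervals. The Hmcn2 sub-cluster stands highest for Lama2 at 582 to 595 CPM, the Clu sub-cluster for Lamb2 at 477 to 567 CPM, and in most other sub-clusters the blue point of Lama2, Lamb1 and Lamc1 is the highest.

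Both the mix of cells and the level within them moved with the age contrast. Without the Hmcn2 sub-cluster, a setting chosen after the values were seen, Lama2 was at 106, 181 and 124 CPM, giving ratios of 1.70 (1.63 to 1.77) for age and 0.687 for treatment. Its treatment ratio then no longer reached the 1.5-fold limit, and the age ratio of Lamc1 fell short of it at 1.48, while Lamb2 kept 1.58. Within sub-clusters, the age ratio of Lama2 was above 1 in 8 of 9 (0.986 to 2.56), each time with an interval above 1. Its treatment ratio was below 1 in 8 of 9 (0.474 to 1.02), with 7 intervals below 1. Lamc1 had an age ratio above 1 in 8 of 9 (0.970 to 1.91) and a treatment ratio below 1 in 9 of 9 (0.639 to 0.959). Lamb1 gave 8 of 9 (0.952 to 2.57) and 9 of 9 (0.491 to 0.866), and Lama4 gave 8 of 9 (0.950 to 1.62) and 8 of 9 (0.639 to 1.02). Lamb2 was less even. Its age ratio was above 1 in 6 of 9 (0.818 to 2.38), with 2 intervals below 1, and its treatment ratio was below 1 in only 5 of 9 (0.631 to 1.29). The widest Lama2 difference was in the sub-cluster led by Swt1, at 103, 263 and 125 CPM.

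Of 12 other basement membrane genes listed as partners, 5 were higher and none lower in old PBS FAP-like cells, where 6.39% and 5.67% of all genes were. Their median log2 ratio was 0.50, against -0.04 over all genes. Col4a1, a chain of the collagen IV network, was at 455, 739 and 517 CPM (1.62, 1.59 to 1.65) and Col4a2 at 266, 437 and 304 CPM (1.64, 1.6 to 1.68). Col15a1, a collagen of the outer face of the basement membrane, was at 126, 218 and 131 CPM (1.73, 1.67 to 1.79), and Ntn4, a netrin that binds laminin, at 20.7, 35.6 and 30.2 CPM (1.72, 1.58 to 1.88). In the treatment contrast Col15a1 was lower, at 0.603 (0.582 to 0.625), no partner was higher, and the median log2 ratio was -0.40, against 0.02 over all genes. The 3 members of the list nearest to laminin, Nid1, Nid2 and Hspg2, had age ratios of 1.39, 1.29 and 1.43, inside the limits. Bcam, a laminin receptor, was at 1.25, 0.941 and 0.654 CPM, with intervals that held 1 in both contrasts.

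Genes on either side of the integrins are read against the same shares of all genes, 6.39% and 5.67% for age and 3.42% and 3.9% for treatment. Of 12 integrin ligands counted in FAP-like cells, Npnt and Icam2 were higher in old PBS, each under 1 CPM in every library, and Spp1 was lower. Spp1, osteopontin, was at 115, 63.8 and 142 CPM, giving ratios of 0.556 (0.528 to 0.586) for age and 2.23 (2.12 to 2.35) for treatment, where it was the 1 higher ligand and Vtn, vitronectin, the 1 lower. Fn1, the ligand of the Itga5 and Itgb1 pair, had an age ratio of 1.21 (1.20 to 1.22). Of 19 adaptors on integrin tails, Lims2 and Pxn were higher and Fermt3 and Bcar1 lower for age, and Parvb was higher for treatment. Pxn, paxillin, was at 21.6, 34.1 and 25.4 CPM and Lims2, a partner of integrin-linked kinase, at 4.19, 8.93 and 7.53 CPM.

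In macrophage/monocyte-like cells 4 of 30 chains were higher in old PBS and none was lower, where 5.97% and 5.52% of all genes were. In the treatment contrast 1 was higher and 3 were lower, where 4.6% and 3.49% of all genes were. The abundant chain among them was Itgax, at 42.5, 78.9 and 48.1 CPM from 4048, 6870 and 5077 UMIs. Its ratio was 1.86 (1.79 to 1.93) for age and 0.609 (0.588 to 0.632) for treatment. Cells with an Itgax UMI numbered 1426 of 6067, 1900 of 5470 and 1689 of 6532. The old PBS library stood apart, and young PBS and old rMETRNL were near each other. The summed markers of some other cells had the same order in this class, the 10 myocyte markers at 81.6, 171 and 97.7 CPM and the 10 T/NK markers at 108, 187 and 140 CPM, and their part was not tested.

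The other abundant chains of the Itgb2 family stayed inside the 1.5-fold limits. Itgam was at 151, 181 and 197 CPM, giving ratios of 1.20 (1.18 to 1.23) for age and, for treatment, 1.09 (1.06 to 1.11). Itgb2 had ratios of 1.25 (1.23 to 1.28) and 0.900 (0.883 to 0.917). Itgal was at 53.2, 61.4 and 41.3 CPM, giving ratios of 1.15 (1.11 to 1.20) and 0.673 (0.647 to 0.701). Old rMETRNL was therefore the highest library for Itgam and the lowest for Itgal.

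Old PBS was also the highest library for Itgax inside each macrophage cluster, and the clusters were made without it. In all 7 clusters the age ratio was above 1 (1.26 to 3.21), with 6 intervals above 1, and the treatment ratio was below 1 (0.402 to 0.831), with 6 intervals below 1. Its level differed more between clusters than between libraries. It was at 5.57, 9.48 and 3.81 CPM in the cluster led by Cd163, a marker of resident-type macrophages, and at 64.7, 95.3 and 79.2 CPM in the cluster led by Clec4e. The cell numbers moved too, at 832, 896 and 1382 in the Cd163 cluster and 1368, 1934 and 1207 in the Clec4e cluster. The part of this mix in the class ratios was not tested. Itgal, too, was above 1 for age (1.09 to 2.02) and below 1 for treatment (0.460 to 0.875) in all 7 clusters. Itgb2 was above 1 for age in 7 of 7 (1.07 to 1.41) and below 1 for treatment in 6 of 7 (0.815 to 1.03). Itgam was above 1 for age in 7 of 7 (1.06 to 1.55) and above 1 for treatment in 5 of 7 (0.979 to 1.15).

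**Figure D4:**
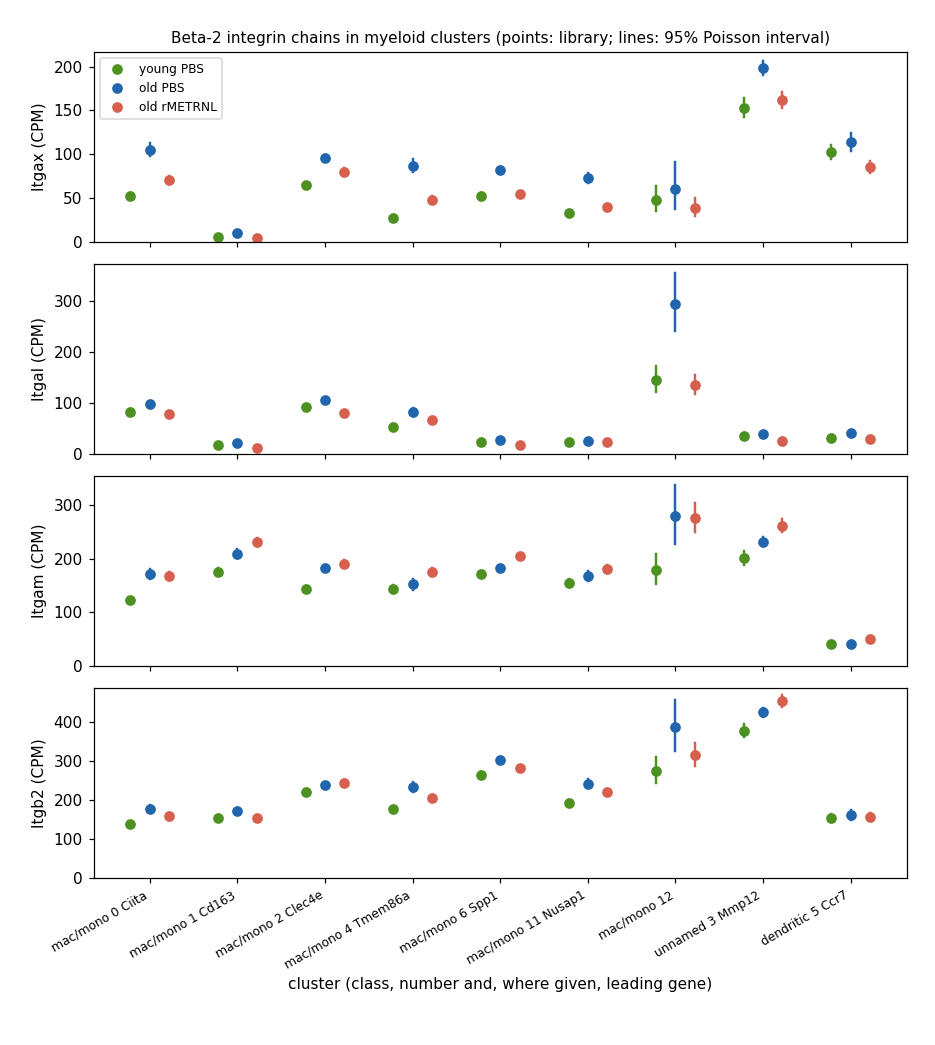
Levels of Itgax, Itgal, Itgam and Itgb2 (panels) in 7 macrophage/monocyte-like clusters, the unnamed cluster led by Mmp12 and the dendritic-like cluster (x axis); points are CPM in young PBS (green), old PBS (blue) and old rMETRNL (red) and lines are 95% Poisson intervals. For Itgax the blue point is the highest in every cluster, and for Itgam the red point is the highest in 7 of the 9.

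The remaining macrophage pairs were low. Itga1 was at 1.61, 2.49 and 1.80 CPM (age ratio 1.55, 1.26 to 1.92). Lama2 was at 0.462, 0.884 and 0.644 CPM (1.91, 1.30 to 2.84), in 44, 75 and 67 cells with at most 2 UMIs each, while FAP-like cells had 110, 219 and 133 CPM. Itgb8 was at 0.084, 0.344 and 0.151 CPM (4.10, 1.84 to 10.4), with 15 of its 30 old PBS UMIs in 1 cell. Lower for treatment beside Itgax and Itgb8 (0.440, 0.224 to 0.833) was Itga8, at 0.430, 0.494 and 0.246 CPM (0.499, 0.294 to 0.830). Lama3 was higher, at 0.147, 0.126 and 0.303 CPM (2.40, 1.18 to 5.28). Across the processing settings the Itgb8 ratios ran from 1.70 to 5.77 for age and from 0.373 to 0.902 for treatment. Free RNA from other cells was not tested as a source of these counts. Of 12 integrin ligands counted in these cells, Vtn, Npnt and Mfge8 were higher and Icam2 was lower for age (5.97% and 5.52% of all genes). Icam2 was at 8.33, 4.82 and 7.17 CPM (0.579, 0.513 to 0.652). Mfge8, the bridge between apoptotic cells and the Itgav integrins, was at 61.9, 196 and 153 CPM, an age ratio of 3.17 (3.08 to 3.26).

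Dendritic-like cells had 3 of 14 chains higher in old PBS and none lower, where 4.72% and 5.58% of all genes were. These were Itga1 at 13.1, 26.1 and 26.4 CPM (1.99, 1.48 to 2.70), Itgae (1.64, 1.25 to 2.16) and Itga5 at 44.2, 71.8 and 56.8 CPM (1.62, 1.37 to 1.92). In the treatment contrast no chain passed in either direction, where 4.3% and 3.44% of all genes did. Itgax here had an age ratio of 1.12 (0.989 to 1.26), an interval that held 1. Some marker lists were also highest in old PBS: the 9 dendritic markers at 1381, 1955 and 1278 CPM, the 10 T/NK markers at 129, 194 and 116 CPM, the 6 B cell markers at 146, 277 and 192 CPM and the 10 myocyte markers at 40.7, 192 and 93.3 CPM. Others were not, such as the 11 FAP markers at 866, 580 and 782 CPM, the 12 macrophage markers at 1925, 2068 and 2150 CPM and the 6 erythroid markers at 178, 38.8 and 671 CPM. Their part in these ratios was not tested.

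T/NK-like cells had 2 of 15 chains higher and 1 lower for age, where 6.33% and 4.28% of all genes were. Itga1, the VLA-1 chain of tissue-resident lymphocytes, was at 14.8, 42.7 and 39.1 CPM (2.89, 1.79 to 4.81). Lamb3 had ratios of 1.90 (1.25 to 2.92) for age and 0.542 (0.316 to 0.895) for treatment. Itga2, the VLA-2 chain known as DX5 on NK cells, was at 35.1, 8.92 and 30.2 CPM. Its ratios were 0.254 (0.131 to 0.462) for age and 3.38 (1.71 to 6.98) for treatment, on 57, 14 and 27 UMIs. For treatment 2 chains were higher and 1 lower, where 3.45% and 4.18% of all genes were. The other higher one was Itgam, at 14.2, 14 and 32.4 CPM, with 12 of its 29 old rMETRNL UMIs in 1 cell. This class mixes T and NK cells, and their shares were not measured. The 5 mast cell markers, all detected in every library, summed to 1947, 173 and 350 CPM in it, the same order as Itga2. The 10 myocyte markers summed to 64.7, 352 and 71.5 CPM. The 12 macrophage markers, at 1248, 1804 and 1842 CPM, and the 11 FAP markers, at 490, 621 and 670 CPM, were higher in both old libraries, as Itga1 was. The part of these lists in the ratios was not tested.

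Endothelial-like cells had 6 of 28 chains higher and 2 lower in old PBS, where 8.14% and 6.97% of all genes were. In the treatment contrast 3 were higher and 4 lower, where 5.17% and 5.27% of all genes were. The libraries differed in depth here, with medians of 11276, 3914 and 7239 UMIs per cell.

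Some matrix-binding chains were lowest in old PBS. Itga2 was at 18.8, 9.97 and 19.3 CPM, giving ratios of 0.530 (0.395 to 0.703) and 1.94 (1.47 to 2.58). Itgb3, the partner of Itgav on growing vessels, was at 21.9, 14.6 and 26.9 CPM, giving ratios of 0.666 (0.520 to 0.849) and 1.84 (1.46 to 2.34). Lamb1 was at 165, 126 and 193 CPM, giving ratios of 0.761 and 1.53 (1.42 to 1.66). Lamc1 was at 176, 146 and 189 CPM and Lama4 at 154, 148 and 193 CPM, both inside the limits. For these 3 chains old PBS was the lowest library in endothelial-like cells and the highest in FAP-like cells, and no test of that difference between classes was possible. Lamb2 went the other way, at 72.3, 104 and 73.8 CPM, and Lama5 hardly moved (1.02, 0.914 to 1.14, for age). In the 2 endothelial-like clusters described below, the age ratios were 0.804 and 1.01 for Lamc1 and 0.581 and 1.03 for Lama4. Those of Lamb1 were 0.648 and 0.787, so only Lamb1 was below 1 in both.

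Of 11 other basement membrane genes counted in endothelial-like cells, 1 was higher (Ntn4) and 2 were lower for age, against the 8.14% and 6.97% of all genes. Col18a1, the source of endostatin, was at 418, 180 and 359 CPM, giving ratios of 0.430 (0.403 to 0.459) for age and 2.0 (1.87 to 2.13) for treatment. Col15a1 was at 494, 299 and 439 CPM, an age ratio of 0.605 (0.574 to 0.637). Col4a2 had an age ratio of 0.743 (0.722 to 0.764). Bcam, at 148, 204 and 156 CPM, and Ntn4, at 3.57, 7.44 and 4.96 CPM, were highest in old PBS, and Nid1 had an age ratio of 0.977. For treatment Nid2 and Col18a1 were higher and Ntn4 was lower. Of 12 integrin ligands counted, Vtn was higher and Fn1 and Tnc lower for age, and Spp1 and Tnc were higher and Vtn and Postn lower for treatment. Tnc, tenascin C, was at 41.4, 15.2 and 40.7 CPM.

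**Figure D5:**
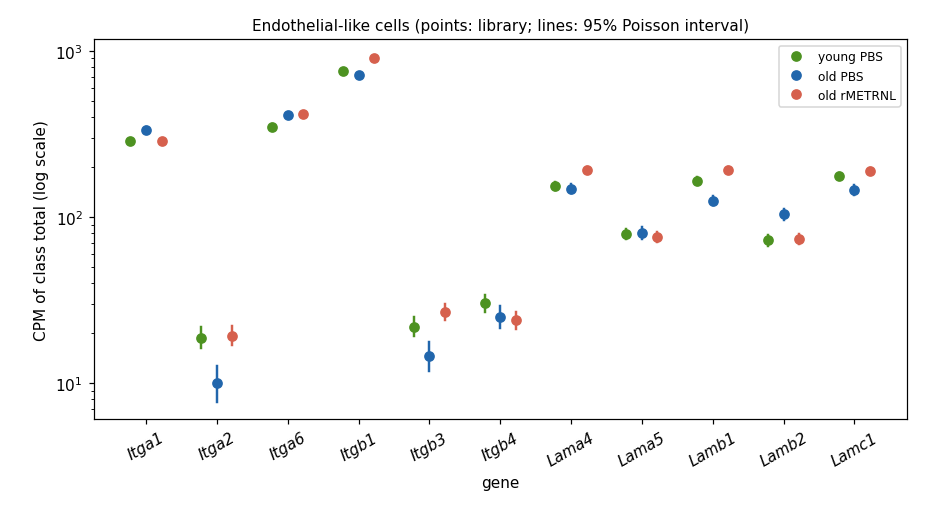
Levels of 11 integrin and laminin chains (x axis) in endothelial-like cells; points are CPM on a log scale in young PBS (green), old PBS (blue) and old rMETRNL (red), and lines are 95% Poisson intervals. Old PBS is the lowest library for Itga2 at 9.97 CPM, Itgb3 at 14.6 CPM and Lamb1 at 126 CPM and the highest for Lamb2 at 104 CPM.

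The chains higher in old PBS endothelial-like cells were largely those of leukocytes. Itgax was at 0.793, 4.91 and 1.57 CPM (6.20, 2.81 to 15.5), Itga4 at 2.77, 8.33 and 5.22 CPM (3.0, 1.88 to 4.91), Itgal at 1.78, 5.36 and 2.26 CPM (3.0, 1.66 to 5.62) and Itgb2 at 7.13, 11.2 and 6.87 CPM (1.56, 1.12 to 2.19). Their treatment ratios, in the same order, were 0.319, 0.626, 0.422 and 0.616, and each was counted as lower. That of Itgal turned to 1.22 with cells thinned to 2000 UMIs and to 1.25 with CPM averaged over cells. Across the processing settings the age ratios ran from 2.16 to 7.70 for Itgax and from 2.39 to 3.93 for Itga4. They ran from 1.01 to 3.64 for Itgal and from 1.47 to 3.17 for Itgb2. The treatment ratios ran from 0.302 to 0.912 for Itgax, 0.607 to 0.756 for Itga4 and 0.547 to 0.679 for Itgb2. The summed level of the 12 macrophage markers, all detected, was 533, 1135 and 982 CPM in these cells, and its part in these ratios was not tested. The other higher chains were Itgb5, at 18.6, 33.6 and 22.4 CPM (1.81, 1.48 to 2.20), and Lama2, at 3.37, 5.95 and 4.26 CPM (1.77, 1.09 to 2.88). In the same order were the 9 pericyte/smooth muscle markers, at 741, 1174 and 870 CPM, and the 10 myocyte markers, at 31.3, 286 and 68.0 CPM, all detected, and their part was not tested. The age ratio of Lama2 ran from 1.12 to 5.07 across the settings and that of Itgb5 from 1.75 to 2.16.

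Endothelial-like cells formed 2 clusters with different receptors. The larger was led by Cldn5 and Gpihbp1, a capillary gene, and the smaller by Selp, Sele and Ackr1, genes of venules. Itgb4 was at 16.7, 9.64 and 12.9 CPM in the first and at 85.1, 82.6 and 73.3 CPM in the second. Itga1 was at 333, 382 and 322 CPM in the first and 95.1, 146 and 118 CPM in the second. Itga6 was at 378, 455 and 446 CPM and 233, 241 and 283 CPM. Lamb1, Itga2 and Itgb3 had age ratios below 1 and treatment ratios above 1 in both clusters. Lama4 was at 85.6, 49.7 and 85.2 CPM in the second cluster and at 171, 175 and 217 CPM in the first.

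MuSC/myoblast-like cells had 2 of 22 chains higher and 1 lower for age, where 4.75% and 3.07% of all genes were, and none higher and 3 lower for treatment, where 1.97% and 3.57% of all genes were. Itga5 was at 19.1, 29.3 and 22.5 CPM (1.53, 1.27 to 1.84). Itgb4 was at 6.33, 3.54 and 4.6 CPM (0.560, 0.339 to 0.888), but its age ratio turned to 2.29 with a stricter cell filter. Itgb8 had the largest ratio of any pair, at 1.01, 8.17 and 1.95 CPM (8.06, 4.54 to 15.1), but 28 of its 53 old PBS UMIs came from 1 cell, where no young PBS cell held more than 1. The glial markers, whose cells had Itgb8 at 393 to 479 CPM, summed to 9.62, 17.7 and 8.93 CPM in this class, and their part was not tested. Lower for treatment beside Itgb8 (0.239, 0.146 to 0.385) were Itga6, at 5.89, 5.85 and 2.44 CPM (0.417, 0.256 to 0.678), and Itga1, at 3.35, 3.39 and 1.74 CPM (0.514, 0.278 to 0.957). Across the processing settings these treatment ratios ran from 0.180 to 0.764 for Itga6, 0.187 to 0.830 for Itga1 and 0.123 to 0.271 for Itgb8. Itgb1, the partner of Itga7, was at 325, 379 and 378 CPM. Of 10 integrin ligands counted, Tnc, Vcam1 and Icam1 were higher and Fn1 was lower for age (4.75% and 3.07% of all genes). Vcam1, which binds the Itga4 integrins, was at 145, 218 and 164 CPM (1.5, 1.41 to 1.61), and Fn1 had a ratio of 0.628 (0.541 to 0.726).

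Tenocyte-like cells had 3 of 21 chains higher and none lower for age, where 6.73% and 4.01% of all genes were, and none higher and 1 lower for treatment, where 3.19% and 4.65% of all genes were. Lama3 was at 5.05, 13.4 and 10.7 CPM (2.66, 1.47 to 4.91). Itgb2 was at 5.30, 16.7 and 8.90 CPM (3.15, 1.80 to 5.63) and Itgam at 3.61, 8.81 and 7.37 CPM (2.44, 1.18 to 5.16). Itgb2 was also the lower one for treatment (0.533, 0.325 to 0.873). The 12 macrophage markers, all detected, summed to 793, 2283 and 1191 CPM in this class and the 10 myocyte markers to 34.7, 165 and 48.8 CPM, and their part was not tested. The collagen receptor chains Itga10 and Itga11 had age ratios of 1.30 (0.808 to 2.06) and 1.04 (0.822 to 1.31), with intervals that held 1.

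Another 3 classes had under 100 cells in at least 1 library and are given by level. Myocyte-like cells had Itgb1 at 64.3, 82.4 and 58.4 CPM on 9, 124 and 26 UMIs, and no chain there had more than 9 UMIs in young PBS. Pericyte/smooth muscle-like cells had the highest Itgb1 of any class, at 1404, 1241 and 1452 CPM, and Itga1 at 782, 676 and 623 CPM, above the endothelial-like level in each library. They also had Itga7 at 165, 180 and 136 CPM, near the MuSC/myoblast-like level. Itga8 stood at 23.1, 37 and 98.6 CPM there, on 17, 22 and 50 UMIs. Glial-like cells had Itgb8 at 479, 393 and 401 CPM from 63, 111 and 72 UMIs, far above any other class. They had Itgb4 at 91.3, 117 and 106 CPM and Itga6 at 152, 262 and 189 CPM, the laminin receptor of myelinating Schwann cells. Only 16 young PBS cells fell in this class.

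Over the 7 classes, the lists around the integrins are read against all pairs, of which 6.16% were higher and 5.11% lower for age and 3.76% and 4.04% for treatment. Basement membrane partners were higher for age in 12 of 62 pairs (19.4%) and lower in 4, and for treatment higher in 4 and lower in 7. Integrin ligands were higher in 10 of 73 (13.7%) and lower in 10 for age, and higher in 4 and lower in 5 for treatment. Adaptors on integrin tails were near the share of all pairs, higher in 9 of 118 (7.63%) and lower in 4 for age, and higher in 2 and lower in 3 for treatment.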

How the data were processed

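Single-cell suspensions of injured tibialis anterior muscle were sequenced as 3 libraries, 1 per group, each of pooled mice. The authors deposited unscaled counts, 1 UMI count for each gene in each called cell, made with Cell Ranger. The file headers give version 5.0.0, the submitters' processing notes list versions 5.0.0 and 3.1.0 and build mm10, and the methods name another version. Which version did which step, and the annotation release, are not given in the sources used here. Gene spans are from GENCODE M21 (GRCm38), in which 32158 of 32285 IDs and 37 of 37 members were found.

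A cell was kept where it showed 500 or more genes and its mitochondrial share was below 10%. Scrublet's own threshold called 1 doublet in young PBS and 0 in each of the other libraries, so the highest scores were removed at 0.8% per 1000 cells, which were 1125, 1072 and 1408 cells. After scaling each cell to 10000 counts and taking logs, 2000 variable genes other than members, 30 principal components and 20 neighbours gave 19 Leiden clusters at resolution 0.8, with no integration. Clusters and sub-clusters of FAP-like and macrophage/monocyte-like cells took a class by the listed markers they expressed. The naming conditions were revised after the cluster tables were seen, and the members and all gene lists were chosen with earlier results of these data known. The adaptor, partner and ligand lists hold 21, 12 and 14 genes.

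UMIs were summed per class and library. Intervals were exact Poisson intervals for levels and exact conditional intervals for ratios, at 95%, and cover counting error only. A count of 0 was given the limit of 3 counts. Members were named, except for 1 that is not reported here by name and enters counts and sums only, each in full in its highest class, and the 5 largest ratios a direction, class and contrast past 1.5-fold. The further chains past it, and other genes named beside them, were added after their values were seen. Of 17 other settings, 3 were added after the data were seen. The ratio procedure was tested on simulated counts. Software was Python 3.11.15, numpy 2.4.6, scipy 1.17.1, pandas 2.3.3, scanpy 1.11.5, anndata 0.12.19, igraph 0.11.9 and matplotlib 3.10.9.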

Additional observations from a re-analysis of the deposited data

Results flagged for a closer look

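A cluster outside the compared classes stood out for the dendritic chain Itgax and its partner Itgb2. It was led by Mmp12, F10 and Il7r, it held 313, 663 and 422 cells in young PBS, old PBS and old rMETRNL, and it stayed unnamed because a lymphocyte marker led it where no macrophage marker did. All 12 macrophage markers were detected in it. Itgax was at 153, 198 and 161 CPM there, in the same order, above the dendritic-like level in each library, although the clustering had not used it. Itgb2 was at 378, 425 and 455 CPM there, above the macrophage/monocyte-like level in each library.

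A sub-cluster of 65 cells, led by Sfrp5, Cldn1 and the chains Itgb4 and Itga6, was taken out of the FAP-like class because none of its leading genes was a FAP marker and its UMI count was low. It held 17, 35 and 13 cells. Itgb4 was at 219, 435 and 484 CPM and Itga6 at 491, 518 and 354 CPM there, both far above FAP-like cells. These chains pair in the laminin receptor of hemidesmosomes. With 1 library per group, outlying samples could not be sought.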

How the results depend on the processing

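No paired analysis was possible because each group had 1 library and no test was run. The number of chains with the same highest class in all 3 libraries was 26 to 29 over the alternatives. The counts of pairs past the fold moved more. With at least 200 UMIs per class they were 12 higher and 3 lower for age and 4 higher and 4 lower for treatment, of 102 pairs. Of all pairs, 4.47% and 4.32% were higher and lower for age and 3.09% and 2.59% for treatment at that setting. With every cell thinned to 2000 UMIs, 7 of 85 were higher for age (5.62% of all pairs), and 3 were higher and 4 lower for treatment (3.53% and 3.16%). At a fold of 2 they were 13 higher and 1 lower for age and 4 higher and 7 lower for treatment, of 161 (2.42%, 1.76%, 1.30% and 1.37% of all pairs). With CPM averaged over cells, 14 of 161 were lower for age and 19 higher for treatment (7.27% and 5.77% of all pairs), and at resolution 0.4, 3 of 158 were lower for age (5.15%). The first of these settings leaves out pairs with few UMIs, the second keeps fewer UMIs per cell and the third sets a wider limit. The cause of the moves was not tested for any of them. Of the 57 pairs past the fold in either contrast, 51 of the 54 that gave a ratio kept their direction when thinned, 56 with CPM averaged over cells, 56 with the stricter cell filter, 56 without the sub-clusters led by a marker of another class, and 57 under each of the other 8 settings that change the cells or scaling. Fewer were still past the fold: 45 of 54 when thinned, 47 of 57 with doublet calls kept and 49 with the stricter cell filter. With CPM averaged over cells 52 were, and 53 to 56 under the rest. Thinning left Itgam and Lama3 in tenocyte-like cells and Itgb6 in FAP-like cells without the counts for an age ratio. The ratios that turned were those of Itga10 (0.918) and Itga4 (1.22) for age in thinned FAP-like cells, Itgb4 for age in MuSC/myoblast-like cells under the stricter filter (2.29), Itgb4 for treatment in FAP-like cells without those sub-clusters (1.12), and Itgal for treatment in endothelial-like cells when thinned (1.22) or with CPM averaged over cells (1.25). The depth limited the thinned values, since 210 old PBS endothelial-like cells fell below 2000 UMIs against 40 in young PBS.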
